A study of Mus musculus with 42 samples.

Results

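Complex I, the NADH:ubiquinone oxidoreductase of the inner mitochondrial membrane, takes electrons from NADH and hands them to ubiquinone while it pumps protons. The messenger RNAs of its nuclear-encoded subunits were followed in spleen cells of mice that carry a change in Psmb8. The members are the protein-coding genes whose symbol is Ndufa, Ndufb, Ndufc, Ndufs or Ndufv followed only by digits, with Ndufab1 added, and they number 37 of the 47719 gene identifiers in the files. The rule used symbols and no measured value. Assembly factors of the Ndufaf series and processed pseudogenes are not members. Ndufa4l2, which its name sets apart from Ndufa4, is not a member either and reached at most 0.163 FPKM.

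The complex is L-shaped. Its arm in the mitochondrial matrix holds the N module, where NADH is oxidised at a flavin, and the Q module, where iron-sulphur clusters pass the electrons to ubiquinone. Its arm in the membrane pumps protons through core subunits that mitochondrial DNA encodes, while the nuclear genes supply the core subunits of the matrix arm and the supernumerary subunits that surround the core. Of the 37 members, 7 are core subunits, among them Ndufv1, Ndufv2 and Ndufs1 of the N module and Ndufs3, Ndufs7 and Ndufs8 of the Q module. Ndufa4 carries a complex I name but belongs to cytochrome c oxidase, complex IV, by later structural work, and it is left out of the 4 module groups but counted among the 37. Lymphocytes at rest use oxidative phosphorylation for most of their ATP, and its nuclear genes are widely expressed.

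The libraries came from untreated spleen, split into B cells, T cells and a remainder labelled non-BT cells. Wild-type mice are labelled Psmb8 +/+, and homozygous mice carry Psmb8 G201V/G201V, which changes 1 residue of the β5i subunit of the immunoproteasome. Each fraction had 4 young wild-type, 4 young homozygous, 3 old wild-type and 3 old homozygous libraries, 42 in all, and libraries that share a replicate number in different fractions may come from 1 animal. The 3 young wild-type libraries with replicate number 4 are titled WT but carry the genotype label Psmb9 +/+; they were grouped by title. Ages in weeks, strain, sex and the means of cell separation are not given in the sources used here, and a bulk fraction cannot tell fewer cells of a type from less RNA per cell.

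Values are FPKM, the fragments of a gene relative to the length of its transcripts and to library size. Levels of different genes therefore depend on the transcript lengths used. The longest transcript of a member ran from 419 bases for Ndufa1 to 4435 for Ndufb7, so the order of members by level carries this limit. The estimated depth was 9520000 to 25920000 fragments a library, so that 100 FPKM of a 1 kb transcript stands for 952 to 2592 fragments. The mean log2(FPKM + 1) of 8 B cell markers was 8.48 to 8.84 in B cell libraries and at most 3.61 elsewhere, and that of 8 T cell markers was at least 7.83 in T cell libraries, at most 3.04 in B cells and 2.90 to 5.77 in non-BT cells. In non-BT libraries neutrophil markers stood at 8.03 to 9.93 and monocyte markers at 6.78 to 7.76, against at most 5.30 and 5.28 elsewhere. Macrophage markers went the other way in young wild-type libraries, at 6.34 to 6.71 in B, 5.18 to 5.55 in T and 4.43 to 4.56 in non-BT cells. Over all libraries they ran from 3.97 to 6.71, 2.88 to 5.55 and 3.58 to 5.09. NK cell markers stood at 4.07 to 5.39 in T cell and 3.68 to 6.73 in non-BT libraries. Comparisons with the non-BT fraction set a mixture of cells beside lymphocyte fractions that also held transcripts of other cells. The libraries of the old animals numbered 2 stood apart in immunoglobulin transcripts, which made up 41.9% and 44.6% of summed FPKM in their T cells and 33.8% and 44.2% in their non-BT cells. Erythroid markers also stood higher there. Their mean log2 level was 6.91 (wild type) and 4.75 (homozygous) in T cells, beside 2.42 to 3.92 in the other old T cell libraries. In non-BT cells it was 8.92 and 7.28, beside 5.17 to 6.31. Results were also computed without these animals.

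All 37 genes were well expressed in every library. The lowest value of any member in any library was 14.4 FPKM and the highest 919 FPKM. Among the 15143 genes that passed the filter over all libraries (at least 1 FPKM in at least 3 libraries), 36 members lay in the top 25% by mean level and 33 in the top 10%. The geometric mean over the 42 libraries was 590 FPKM for Ndufa3, 447 FPKM for Ndufa1, 399 FPKM for Ndufb8 and 352 FPKM for Ndufa4. It was 22.8 FPKM for Ndufa11, 39.0 FPKM for Ndufs4 and 56.6 FPKM for Ndufs1. The core subunits had a median of 137 FPKM (56.6 to 197) and the 30 supernumerary members one of 136 FPKM (22.8 to 590). By location, the median was 133 FPKM for the 8 N module members, 155 FPKM for the 8 Q module members, 118 FPKM for the 9 members of the proximal and 124 FPKM for the 10 members of the distal membrane arm. Ndufab1, the mitochondrial acyl carrier protein, stood at 284 FPKM.

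**Figure D1:**
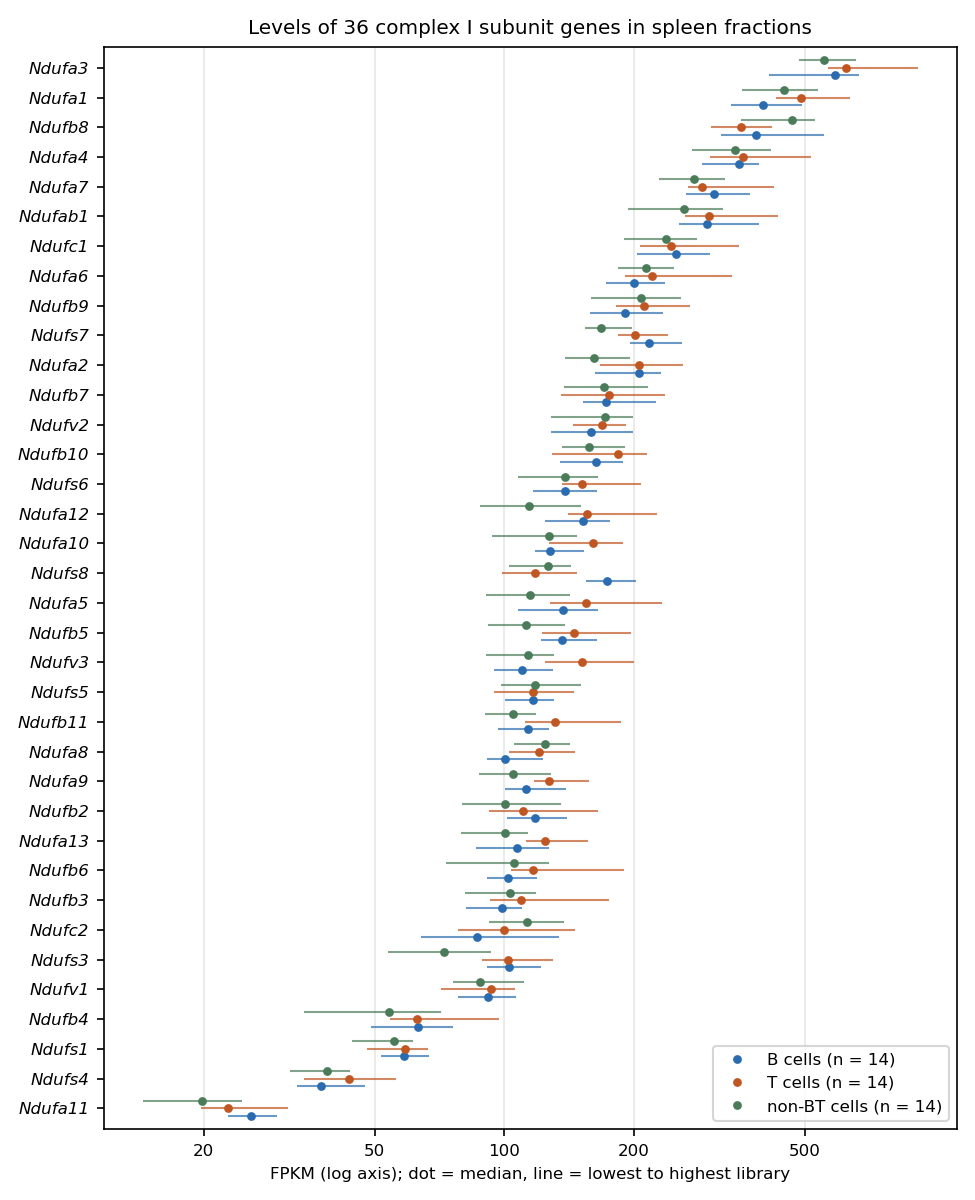
Level of 36 complex I subunit genes in FPKM on a log axis, in order of the geometric mean. A dot is the median and a line the lowest to highest of the 14 libraries of a fraction. Ndufa3 lies at the top and Ndufa11 at the bottom in all 3 fractions, and the B cell line of Ndufs8 (155 to 203 FPKM) lies clear of its T cell line (98.96 to 147 FPKM).

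Reads without strand leave some members uncertain where exons of another gene lie opposite. Ndufs1, the largest core subunit of the N module, overlaps Eef1b2, a translation elongation factor gene whose median was 294 FPKM against 56.9 FPKM for Ndufs1. Ndufs6 overlaps Mrpl36 (74.6 against 145 FPKM), Ndufs3 overlaps Kbtbd4 (32.3 against 96.4 FPKM), Ndufb11 overlaps Rbm10 (41.0 against 114 FPKM) and Ndufb6 overlaps Smim27 (35.8 against 107 FPKM). Values of these members may include fragments of the partner.

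Nuclear genes of the respiratory chain are known to be driven by factors such as NRF1, GABPA (NRF2), YY1 and the oestrogen-related receptors. Promoter windows from RefSeq (GRCm38.p6, 250 bases before to 50 after the start, 300 bases in all) were matched for 33 of the 37 members, with 35 windows. On both strands, GCGCATGCGC (NRF1) was found in 1 matched member (1.07% of 27025 genes), CCGGAAG (the ETS core that GABPA binds) in 4 (9.93% of genes), ATGGCGG (YY1) in 8 (4.69%) and AAGGTCA (ESRRA) in 3 (5.38%). The letters are matches and not mapped sites. The 100 bases before the RefSeq start are printed below for 5 members that hold a match within them and that the results return to. Capitals mark the match, and position -1 is the base before that start. GENCODE M21, the source of the gene positions given later, begins Ndufs3, Ndufb7 and Ndufb4 further upstream (at 90904827, 83566671 and 37654453). Their matches, and that of Ndufa5 given after the sequences, lie inside the annotated gene. Ndufs3 and Ndufb7 carry the ETS core at -27 to -21 and -20 to -14, Ndufa11 the NRF1 letters at -60 to -51, Ndufb4 the ESRRA letters at -55 to -49 and Ndufa7 the YY1 letters at -98 to -92.
Ndufs3, chr2:90904722-90904821, minus strand: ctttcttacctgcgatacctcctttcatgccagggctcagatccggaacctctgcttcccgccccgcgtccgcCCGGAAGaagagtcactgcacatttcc
Ndufb7, chr8:83566658-83566757, plus strand: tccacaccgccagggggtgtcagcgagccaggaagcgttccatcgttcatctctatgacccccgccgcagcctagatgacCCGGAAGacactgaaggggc
Ndufa11, chr17:56717662-56717761, plus strand: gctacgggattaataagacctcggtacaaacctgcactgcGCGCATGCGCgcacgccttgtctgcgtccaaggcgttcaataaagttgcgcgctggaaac
Ndufb4, chr16:37654369-37654468, minus strand: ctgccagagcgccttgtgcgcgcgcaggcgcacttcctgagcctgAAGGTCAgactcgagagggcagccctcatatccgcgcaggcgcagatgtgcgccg
Ndufa7, chr17:33824472-33824571, plus strand: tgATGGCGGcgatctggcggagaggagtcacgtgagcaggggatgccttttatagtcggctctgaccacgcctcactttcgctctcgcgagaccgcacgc
The ETS core also lies at 16 to 22 after the start of Ndufs8 and at -232 to -226 of Ndufb6. The YY1 letters lie after the start in Ndufs7 (28 to 34), Ndufb5 (20 to 26), Ndufa9 (33 to 39), Ndufs4 (39 to 45) and Ndufs6 (37 to 43), and before it in Ndufa5 (-20 to -14) and Ndufa1 (-160 to -154).

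The fractions were compared first, since every member that passed the threshold did so there. Against B cells, T cells had 16 members higher and 4 lower at an adjusted p under 0.05 (limma on log2(FPKM + 1), Benjamini-Hochberg over 15143 genes). The background was large, with 53.2% of all genes called, 30.2% higher and 23.1% lower. Non-BT cells had 5 members higher and 14 lower than B cells, where 67.5% of all genes were called (38.6% higher, 28.9% lower), and 2 higher and 21 lower than T cells, where 63.2% were called (34.9% higher, 28.3% lower). The median log2 difference of the members was 0.06 for T against B cells, -0.06 for non-BT against B cells and -0.17 for non-BT against T cells, beside 0.04, 0.06 and 0.04 for all genes tested. Relative to all genes the non-BT against B cell median of the members was -0.13, which turned to 0.06 under quantile normalization. Called members were 54.1%, 51.4% and 62.2% of the 37 in the 3 pairs, which share libraries, and the lower calls of non-BT against T cells alone were 56.8%. The differences ran from -0.58 to 0.46, from -0.51 to 0.30 and from -0.52 to 0.37, and the median half-width of a 95% interval was 0.12.

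In the N module, T cells had 3 members higher and none lower than B cells, non-BT cells had none higher and 3 lower than B cells, and none higher and 6 lower than T cells. Ndufv1 binds the flavin that accepts electrons from NADH (ENSMUSG00000037916, chr19:4007384-4012806 on the minus strand, as all gene positions here on GRCm38 from GENCODE M21). In B cells Ndufv1 stood at 91.2, 100.3, 88.1 and 83.2 FPKM in young wild-type, 99.5, 91.8, 95.2 and 84.8 in young homozygous, 90.7, 77.9 and 95.3 in old wild-type and 106, 91.1 and 103 in old homozygous libraries. In T cells it stood at 95.8, 87.2, 90.1 and 86.8 FPKM in young wild-type, 82, 102, 98.9 and 98 in young homozygous, 95.6, 83.4 and 96.8 in old wild-type and 91, 71.1 and 106 in old homozygous libraries. In non-BT cells it stood at 81.2, 84.9, 76.2 and 81.7 FPKM in young wild-type, 82.4, 91.8, 97.5 and 99.3 in young homozygous, 76.3, 111 and 86.4 in old wild-type and 91.7, 92 and 89 in old homozygous libraries. The 3 fractions overlapped throughout, and no comparison of Ndufv1 between them passed. Ndufv2, its partner with a further iron-sulphur cluster, has the identifier ENSMUSG00000024099 and lies at chr17:66078638-66101559 on the minus strand. In B cells Ndufv2 stood at 137, 128, 157 and 150.4 FPKM in young wild-type, 162, 157, 169 and 162 in young homozygous, 167, 146 and 153 in old wild-type and 196, 186 and 199.7 in old homozygous libraries. The T cell values were 169, 144, 192 and 150.5 FPKM in young wild-type, 159.8, 169, 189 and 192 in young homozygous, 170.3, 174 and 169 in old wild-type and 174, 165 and 162 in old homozygous libraries. The non-BT values were 129, 163, 173 and 169.7 FPKM in young wild-type, 164, 151, 177 and 179 in young homozygous, 172, 199 and 172 in old wild-type and 179, 189 and 169 in old homozygous libraries. The old homozygous B cell libraries held the higher end in B cells, and the fractions did not differ past the threshold. Ndufs1, which carries several iron-sulphur clusters, has the identifier ENSMUSG00000025968 and lies at chr1:63143596-63176833 on the minus strand. In B cells Ndufs1 stood at 60.2, 58.1, 56.1 and 62.1 FPKM in young wild-type, 66.7, 59, 58.8 and 60.9 in young homozygous, 55.6, 51.8 and 53.5 in old wild-type and 54.6, 65 and 57.5 in old homozygous libraries. Its T cell level was 52.7, 56.7, 59.8 and 52.5 FPKM in young wild-type, 62.2, 66.3, 62.9 and 48.1 in young homozygous, 59.1, 60.5 and 53.5 in old wild-type and 59.8, 58.6 and 57.1 in old homozygous libraries. Its non-BT level was 58.6, 55.6, 60.4 and 55.8 FPKM in young wild-type, 61.5, 55.3, 56.8 and 52.2 in young homozygous, 49.3, 55.8 and 51.3 in old wild-type and 44.2, 47 and 52.3 in old homozygous libraries. Old non-BT libraries held most of the low values, and Ndufs1 was lower in non-BT than in B cells, at -0.12 ± 0.04 (SE, adjusted p = 0.0123) on the log2 scale.

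The supernumerary Ndufv3, which sits on the flavin end of the N module, was the member that stood highest in T cells relative to B cells. In B cells Ndufv3 (ENSMUSG00000024038, chr17:31520115-31531331 on the plus strand) stood at 107, 115, 102 and 98.4 FPKM in young wild-type, 121, 111, 94.7 and 109.9 in young homozygous, 104, 129.9 and 106 in old wild-type and 112, 122 and 112 in old homozygous libraries. In T cells it stood at 170.0, 125, 166 and 149 FPKM in young wild-type, 155, 148, 147 and 200.3 in young homozygous, 171, 160.1 and 135 in old wild-type and 149, 154 and 130.1 in old homozygous libraries. In non-BT cells it stood at 91.3, 90.7, 118 and 108 FPKM in young wild-type, 112, 114, 121 and 128 in young homozygous, 94.1, 130.3 and 105 in old wild-type and 122, 125 and 105 in old homozygous libraries. Most T cell libraries lay above the B and non-BT libraries, with the lowest T cell values (125 and 130 FPKM) at the top of the other fractions' range. The log2 difference was 0.46 ± 0.06 (SE, adjusted p = 6.87e-08) for T against B cells and -0.45 ± 0.06 (SE, adjusted p = 8.29e-08) for non-BT against T cells. Ndufa12, at the junction of the N and Q modules, was lower in non-BT cells, at -0.37 ± 0.06 (SE, adjusted p = 3.62e-06) against B cells and -0.41 ± 0.06 (SE, adjusted p = 7.84e-07) against T cells. Ndufa2 was lower in non-BT cells, at -0.27 ± 0.06 and -0.28 ± 0.06 in the same comparisons.

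The Q module held the members with the strongest differences between fractions. Ndufs8, a carrier of iron-sulphur clusters that lead towards the ubiquinone site, has the identifier ENSMUSG00000059734 and lies at chr19:3908863-3912774 on the minus strand. In B cells Ndufs8 stood at 168, 193, 162 and 165 FPKM in young wild-type, 185, 155, 175 and 159 in young homozygous, 165, 179.7 and 175 in old wild-type and 191, 203 and 172 in old homozygous libraries. The T cell values were 107, 106, 134 and 119.8 FPKM in young wild-type, 99, 99.8, 122 and 147 in young homozygous, 105, 125 and 116 in old wild-type and 108, 132 and 124 in old homozygous libraries. The non-BT values were 103, 121, 130.2 and 128 FPKM in young wild-type, 123, 122, 136 and 143 in young homozygous, 125, 132 and 117 in old wild-type and 133, 131 and 119.6 in old homozygous libraries. Every B cell library lay above every T cell and every non-BT library. The log2 difference was -0.58 ± 0.06 (SE, adjusted p = 5.54e-11) for T against B cells and -0.47 ± 0.06 (SE, adjusted p = 3.71e-09) for non-BT against B cells. Its neighbour in the chain of clusters, Ndufs7, has the identifier ENSMUSG00000020153 and lies at chr10:80249121-80256794 on the plus strand. In B cells Ndufs7 stood at 198, 245, 209.8 and 209.8 FPKM in young wild-type, 238, 231, 224 and 217 in young homozygous, 197, 215 and 218 in old wild-type and 223, 204 and 259 in old homozygous libraries. Its T cell level was 206, 192, 205 and 184 FPKM in young wild-type, 205, 187, 213 and 241 in young homozygous, 204, 193 and 213 in old wild-type and 190.2, 198 and 188 in old homozygous libraries. Its non-BT level was 159, 154, 195 and 166 FPKM in young wild-type, 174, 189, 199 and 161 in young homozygous, 161, 191 and 189 in old wild-type and 156, 169.5 and 165 in old homozygous libraries. In the main fit the order was B, T and non-BT cells. The log2 difference of Ndufs7 was -0.13 ± 0.05 (SE, adjusted p = 0.0172) for T against B cells. It was -0.35 ± 0.05 (SE, adjusted p = 5.15e-08) for non-BT against B and -0.21 ± 0.05 (SE, adjusted p = 0.000143) for non-BT against T cells. Lower calls of the first pair moved with scaling. Members lower in T than in B cells numbered 4 in the main fit, 1 under median-of-ratios scaling and 2 under quantile normalization.

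Ndufs3, part of the earliest Q module intermediate, showed another pattern; it has the identifier ENSMUSG00000005510 and lies at chr2:90894634-90904827 on the minus strand. In B cells Ndufs3 stood at 105, 122, 91.5 and 100.1 FPKM in young wild-type, 97.6, 120.2, 92.1 and 91.4 in young homozygous, 107, 93.9 and 98.1 in old wild-type and 117, 109 and 108 in old homozygous libraries. In T cells it stood at 95.9, 102, 103 and 102 FPKM in young wild-type, 89.1, 96.9, 102 and 129.8 in young homozygous, 109.8, 88.7 and 101 in old wild-type and 122, 110.1 and 106 in old homozygous libraries. In non-BT cells it stood at 68.3, 68.1, 70.7 and 80.1 FPKM in young wild-type, 53.8, 60.7, 74.7 and 65.5 in young homozygous, 72.4, 86.1 and 72.8 in old wild-type and 72.5, 93.2 and 72.5 in old homozygous libraries. B and T cells overlapped, and the old homozygous non-BT library numbered 2, at 93.2 FPKM, was the only library of its fraction within the range of the other fractions. Ndufs3 was lower in non-BT cells, at -0.51 ± 0.06 (SE, adjusted p = 3.1e-09) against B cells and -0.52 ± 0.06 (SE, adjusted p = 2.61e-09) against T cells, while T and B cells did not differ past the threshold (0.01 ± 0.06 SE, adjusted p = 0.939). Among the supernumerary members of the module, Ndufa5 was higher in T than in B cells (0.21 ± 0.07 SE, adjusted p = 0.016) and lower in non-BT than in T cells (-0.44 ± 0.07 SE, adjusted p = 1.99e-06). Ndufa9, which clamps the Q module to the membrane arm, followed the same direction at 0.19 ± 0.05 and -0.28 ± 0.05. In all, the 8 Q module members gave 3 higher and 2 lower for T against B cells, none higher and 5 lower for non-BT against B cells, and none higher and 4 lower for non-BT against T cells.

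The membrane arm went both ways. In its proximal part, T cells had 5 members higher and 1 lower than B cells, and non-BT cells had 3 higher and 1 lower than B cells and 1 higher and 5 lower than T cells. Ndufa1, a small subunit needed for membrane arm assembly, was higher in T cells than in B cells (0.33 ± 0.06 SE, adjusted p = 1.6e-05), as were Ndufa8 (0.24 ± 0.05 SE, adjusted p = 0.000103), Ndufa10 (0.27 ± 0.06 SE, adjusted p = 0.000173) and Ndufa13 (0.23 ± 0.06 SE, adjusted p = 0.000631), also known as Grim19. Ndufa11 was lower in non-BT cells, at -0.38 ± 0.06 (SE, adjusted p = 2.76e-06) against B cells, and Ndufc2 was higher, at 0.30 ± 0.07 (SE, adjusted p = 0.00064). In the distal part, T cells had 5 members higher and 1 lower than B cells, and non-BT cells had 2 higher and 4 lower than B cells and 1 higher and 5 lower than T cells. Ndufb5 and Ndufb11 were lower in non-BT than in T cells, at -0.36 ± 0.05 (SE, adjusted p = 3.34e-07) and -0.33 ± 0.05 (SE, adjusted p = 2.86e-07). Ndufb8 went against these.

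In B cells Ndufb8 (ENSMUSG00000025204, chr19:44548572-44555440 on the minus strand) stood at 361, 453, 347 and 319 FPKM in young wild-type, 392, 355, 434 and 382 in young homozygous, 389, 358 and 358 in old wild-type and 556, 443 and 410.5 in old homozygous libraries. Its T cell level was 370.3, 353, 377 and 313 FPKM in young wild-type, 303, 370.2, 386 and 373 in young homozygous, 327, 347 and 317 in old wild-type and 419, 357 and 354 in old homozygous libraries. Its non-BT level was 356, 376, 474 and 522 FPKM in young wild-type, 462, 462, 516 and 499.5 in young homozygous, 366, 528 and 441 in old wild-type and 453, 491 and 501 in old homozygous libraries. Most non-BT libraries lay above the T cell libraries, while the highest single value, 556 FPKM, was that of an old homozygous B cell library. Ndufb8 was higher in non-BT cells, at 0.37 ± 0.06 (SE, adjusted p = 5.3e-06) against T cells and 0.21 ± 0.06 (SE, adjusted p = 0.00473) against B cells. Without the old animals numbered 2 the second difference was 0.16 with an adjusted p of 0.0585. Ndufb8 and Ndufc2 were the 2 members higher in non-BT than in T cells.

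**Figure D2:**
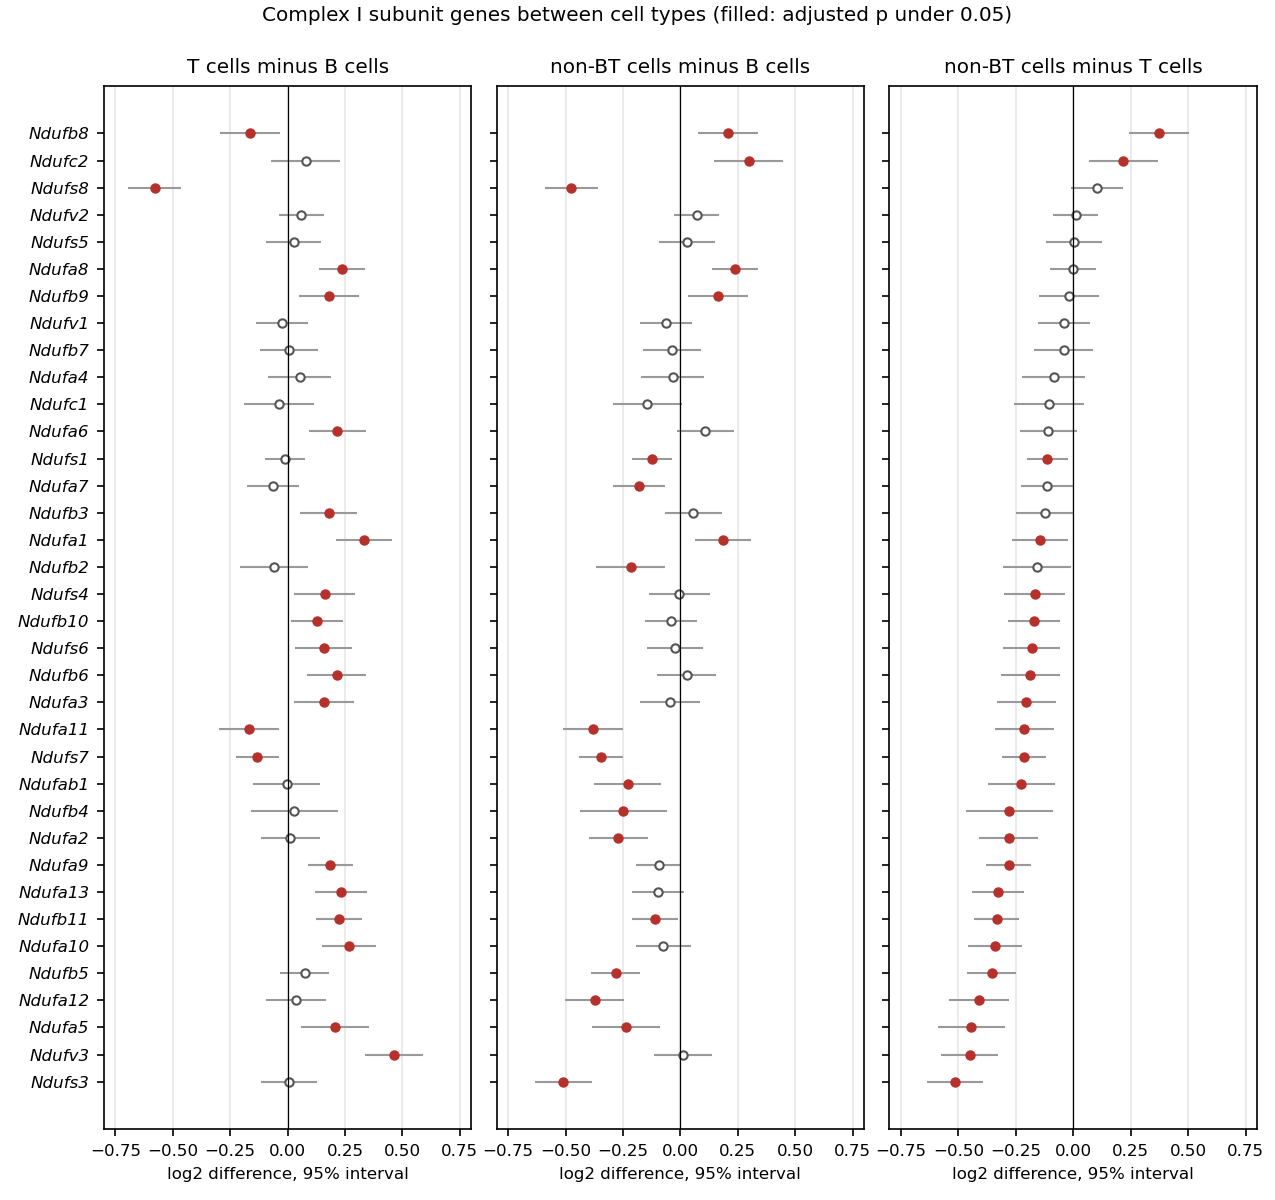
Log2 difference of 36 complex I subunit genes between fractions with 95% intervals (limma, 42 libraries), ordered by the difference of non-BT minus T cells; filled dots have an adjusted p under 0.05. Ndufs8 lies far to the left in both panels against B cells, Ndufs3 in both panels of non-BT cells, and Ndufv3 to the right in T minus B and to the left in non-BT minus T.

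Genotype was tested within each fraction, at each age and averaged over ages, since the study set out to find genes that differ between Psmb8 G201V/G201V and wild-type cells. No member passed the threshold in any of these 9 comparisons, in any age by genotype interaction or in any genotype by cell type interaction. Calls among all genes were few as well. The share called was 0.0734% in young and 0.00815% in old B cells, 0 in young and old T cells, and 1.69% in young and 0 in old non-BT cells. Averaged over ages it was 0.693%, 0.00758% and 1.18% in the B, T and non-BT fraction. It was 0 in the age by genotype interactions of all 3 fractions, and 0.0528%, 0.39% and 0.178% in the genotype by cell type interactions of T against B, non-BT against B and non-BT against T cells. Where no gene was called at all, an unadjusted p under 0.05 was given to 8.67% of 13193 genes and 1 of 37 members in young T cells, 3.81% of genes and no member in old T cells, and 5.78% of 13587 genes and no member in old non-BT cells. In the interactions of age with genotype it was given to 868 of 12269 genes and 1 of 37 members in B cells. It was given to 511 of 13193 genes and no member in T cells, and to 723 of 13587 genes and no member in non-BT cells. An unadjusted p under 0.05 was also given to 5 members in young B cells and 2 in young non-BT cells (9.39% and 13.9% of all genes). The intervals bound what these libraries can show. Over the 6 comparisons at 1 age the median half-width of a member's 95% interval was 0.21 to 0.31 on the log2 scale, and the widest bounds of any member were -0.67 and 0.64.

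Old B cells were where the members lay furthest to one side. All 37 had a positive log2 difference, homozygous minus wild type, with a median of 0.19 (0.03 to 0.36), where 44.2% of all 12269 genes were positive and their median was -0.04. By module the medians were 0.16 for N, 0.18 for Q, 0.20 for the proximal and 0.20 for the distal membrane arm. In 16 of 37 members all 3 homozygous libraries lay above all 3 wild-type libraries, as they did in 6.04% of all genes, and in no member did they all lie below (6.45% of all genes). Among these were the core subunits Ndufv2 and Ndufs3, and Ndufa5, Ndufa6, Ndufa7, Ndufa8, Ndufa9, Ndufa10, Ndufa11, Ndufa12, Ndufb2, Ndufb3, Ndufb5, Ndufb8 and Ndufb11. An unadjusted p under 0.05 was reached by 11 members (10.1% of all genes). The members share the same 6 libraries, so their common sign is not a set of independent observations.

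Ndufa7, a small Q module subunit (ENSMUSG00000041881, chr17:33824572-33838317 on the plus strand), had the smallest p. In B cells Ndufa7 stood at 278, 345, 284 and 282 FPKM in young wild-type, 288, 323, 337 and 333 in young homozygous, 265, 292 and 285 in old wild-type and 373, 342 and 369 in old homozygous libraries. The old homozygous libraries lay above all old wild-type libraries, while the young genotypes overlapped. Its old difference was 0.36 ± 0.10 (SE, adjusted p = 0.321). Ndufv2, with its values given above, followed at 0.32 ± 0.09 (SE, adjusted p = 0.324). Ndufa5 has the identifier ENSMUSG00000023089 and lies at chr6:24518666-24528013 on the minus strand, and in B cells it stood at 117, 137, 117 and 107 FPKM in young wild-type, 127, 140.4, 159 and 165 in young homozygous, 109.9, 137 and 119 in old wild-type and 149.7, 158 and 150.3 in old homozygous libraries. Its old genotypes did not overlap, and its difference was 0.33 ± 0.12 (SE, adjusted p = 0.392). None of the 3 is a call. Averaged over both ages, a comparison that uses the same old libraries, all 37 members were positive (42.8% of all genes), with a median of 0.12, and the smallest adjusted p were those of Ndufv2 (0.25 ± 0.06 SE, adjusted p = 0.0837), Ndufa5 (0.32 ± 0.08 SE, adjusted p = 0.0968) and Ndufa7 (0.24 ± 0.07 SE, adjusted p = 0.142), where 0.693% of all genes were called. Ndufv2 passed with median-of-ratios scaling (adjusted p = 0.0471), and Ndufa5 and Ndufa7 passed with array quality weights (0.0414 and 0.0407).

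Taken per library, the mean log2(FPKM + 1) of the 37 genes was 7.03, 7.18 and 7.11 in wild-type and 7.32, 7.32 and 7.28 in homozygous libraries, without overlap. Markers of other cells are set beside this. All 5 plasma cell markers and all 7 macrophage markers had negative log2 differences in the homozygous libraries (median -0.77 and -0.78, none called), and the mean log2 level of the plasma cell list was 7.11 to 7.88 in the wild-type against 6.13 to 7.72 in the homozygous libraries. That of the macrophage list was 4.80 to 6.31 against 3.97 to 5.88. All 5 proliferation markers had positive ones (median 0.38, none called), but their libraries overlapped. The mean log2 level of that list was 3.73, 4.51 and 4.05 in the wild-type against 4.32, 5.59 and 3.46 in the homozygous libraries. Immunoglobulin transcripts took 20.4% to 25.8% of summed FPKM in wild-type and 12.9% to 29.4% in homozygous libraries. The part of these features in the members' difference was not tested. Without the animals numbered 2, all 37 members were still positive with a median of 0.21, under quantile normalization 36 were positive with a median of 0.16, and over every choice of 1 library left out 35 to 37 were positive with medians of 0.16 to 0.23.

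**Figure D3:**
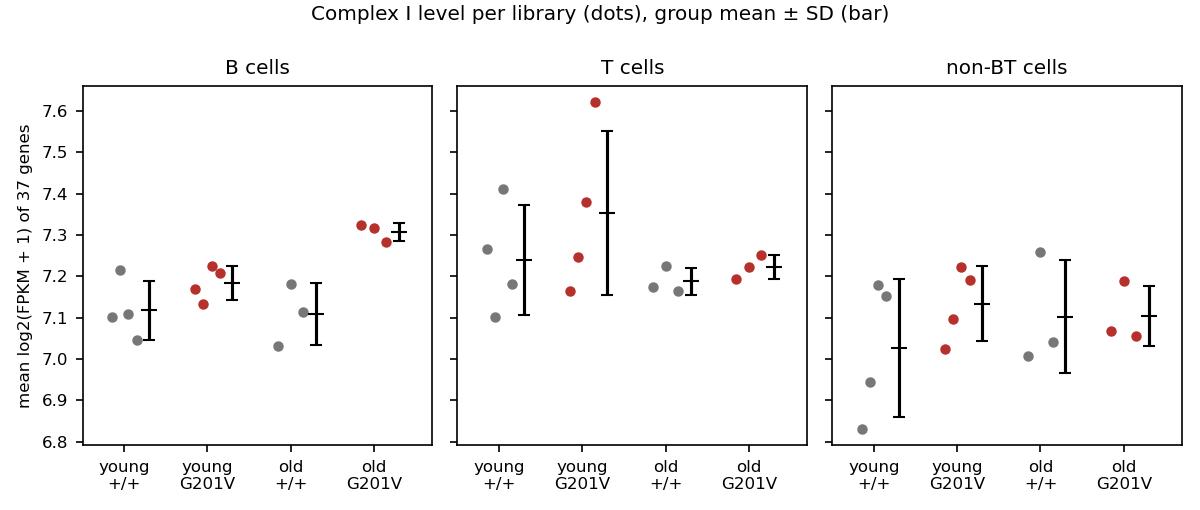
Mean log2(FPKM + 1) of the 37 complex I subunit genes in each of the 42 libraries (grey, wild type; red, Psmb8 G201V/G201V), with the group mean ± SD beside the dots. The old homozygous B cell libraries (7.28 to 7.32) lie above the old wild-type ones (7.03 to 7.18), and the genotypes overlap in the other 5 pairs of groups.

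In young B cells the lean was smaller and mixed. The median difference was 0.07, and 26 of 37 members were positive (46.8% of all genes). The median was 0.04 without the wild-type library numbered 4 or without the homozygous library numbered 3 (22 and 26 positive), 0.10 without the wild-type library numbered 2, and 0.13 with 32 positive under quantile normalization. Markers of other cells moved with genotype here too. The mean log2 level of the macrophage list was 6.34 to 6.71 in wild-type and 4.18 to 4.96 in homozygous libraries, with 1 of 7 markers called lower, and that of the plasma cell list was 6.84 to 7.50 against 6.09 to 6.55, with none of 5 called. Immunoglobulin transcripts took 16.1% to 21.9% and 12.7% to 16.7% of summed FPKM. Their part in the members' values was not tested. The smallest p belonged to Ndufa5 (0.30 ± 0.10 SE, adjusted p = 0.323), Ndufb4 (0.25 ± 0.11 SE, adjusted p = 0.485) and Ndufv2 (0.18 ± 0.08 SE, adjusted p = 0.49). No member separated the 4 homozygous from the 4 wild-type libraries (2.19% of all genes did so upwards). The difference between old and young was itself tested as an interaction and no member passed, with Ndufa8 at 0.31 ± 0.13 (SE, adjusted p = 0.695) having the smallest p. The interaction's median over the members was 0.14 with 30 positive, and 0.02 with 24 positive under quantile normalization.

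In young T cells 34 of 37 members were positive, with a median of 0.10 (50% of all genes). Ndufa7 (0.24 ± 0.11 SE, adjusted p = 0.569), Ndufb11 (0.23 ± 0.11 SE, adjusted p = 0.585) and Ndufb7 (0.24 ± 0.12 SE, adjusted p = 0.588) had the smallest p. The young homozygous T cell library numbered 4 had the highest mean of all libraries, 7.62, while the other young homozygous T cell libraries ran from 7.17 to 7.38 and the wild-type ones from 7.10 to 7.41. Without it, 22 members were positive with a median of 0.02. The other choices of 1 library left out gave 30 to 37 positive and medians of 0.06 to 0.17. Without overlap between the young genotypes, the mean log2 level was 5.18 to 5.55 in wild-type and 2.88 to 3.90 in homozygous T cell libraries for the macrophage list and 5.26 to 5.98 against 3.69 to 4.55 for the plasma cell list, with no marker of either called. Immunoglobulin transcripts took 4.77% to 10.1% against 1.11% to 2.38% of summed FPKM. Their part in the members' values was not tested. In old T cells 24 members were positive with a median of 0.06 (47.8% of all genes), led by Ndufb8 (0.19 ± 0.12 SE, adjusted p = 1), the only member whose old T cell genotypes did not overlap (3.44% of all genes). No member separated the genotypes in young T cells (3.08% of all genes).

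In young non-BT cells 34 members were positive with a median of 0.12 (47.5% of all genes). Without the wild-type library numbered 1, 25 were positive with a median of 0.02, and the other choices of 1 library left out gave medians of 0.07 to 0.16. The smallest p belonged to Ndufb6 (0.28 ± 0.11 SE, adjusted p = 0.274), Ndufb7 (0.27 ± 0.12 SE, adjusted p = 0.321) and Ndufb2 (0.25 ± 0.13 SE, adjusted p = 0.416). Ndufb7 stood at 138, 141, 173 and 159.7 FPKM in wild-type and 182, 182, 191 and 179 FPKM in homozygous libraries, the only member without overlap there (4.87% of all genes). Transcripts of other cells differed between genotypes in this fraction. All 7 plasmacytoid dendritic cell markers were called lower in homozygous libraries, with a median of -2.10, and so were 3 of 5 plasma cell markers, with a median of -2.08 over the list. Immunoglobulin transcripts took 4.22% to 9.54% of summed FPKM in wild-type and 1.04% to 1.42% in homozygous libraries. Their part in the members' values was not tested. In old non-BT cells 20 members were positive with a median of 0.01 (48.7% of all genes), which ran from -0.03 with 13 positive, without the wild-type library numbered 1, to 0.09 with 26 positive, without the wild-type library numbered 2. Ndufs5 (-0.19 ± 0.13 SE, adjusted p = 0.972), Ndufs1 (-0.12 ± 0.09 SE, adjusted p = 0.978) and Ndufb5 (0.15 ± 0.12 SE, adjusted p = 0.98) had the smallest p. Ndufb5 was the only member without overlap (3.92% of all genes).

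**Figure D4:**
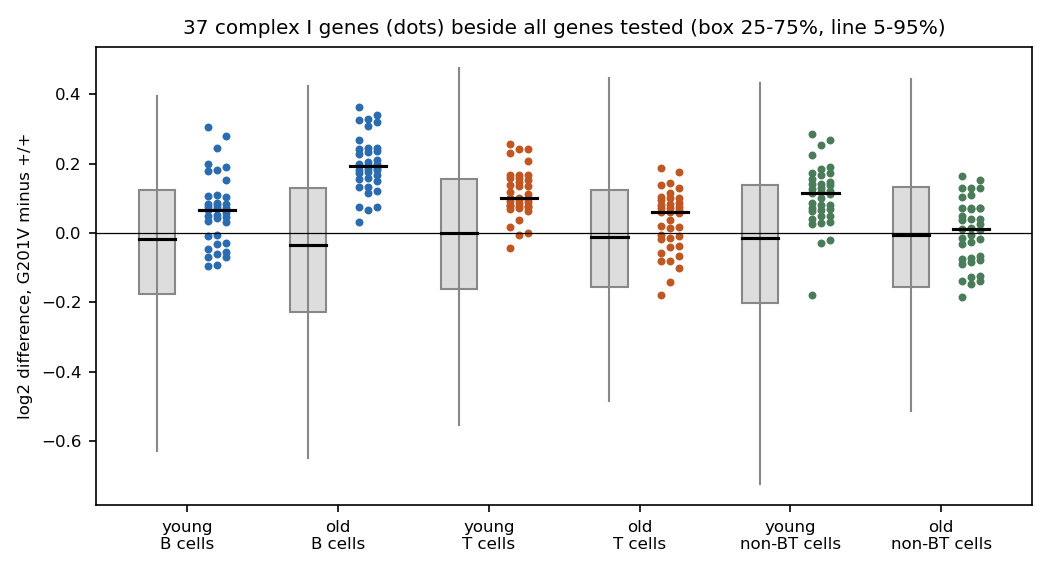
Log2 difference of homozygous minus wild-type libraries in each age and fraction. Dots are the 37 complex I subunit genes with their median as a bar, and grey boxes give the quartiles of all genes tested, with lines from the 5th to the 95th percentile. In old B cells every dot lies above 0 (0.03 to 0.36), while in old non-BT cells the dots lie on both sides (-0.19 to 0.16).

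Young libraries carry library numbers in separate ranges, replicates 1 and 2 below 14000 and replicates 3 and 4 above it, with 2 wild-type and 2 homozygous libraries of each fraction in each. The lean of the members was not the same in both. The median difference was -0.01 in the lower and 0.14 in the higher range in B cells (15 and 33 members positive), 0.02 and 0.20 in T cells (22 and 34), and 0.17 and 0.03 in non-BT cells (36 and 21). All old libraries carry numbers below 14000.

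Age was compared within each genotype, and no member passed. In wild-type mice the median of old minus young was -0.01, -0.05 and 0.10 in the B, T and non-BT fraction, with 16, 12 and 28 of 37 members positive (45%, 48.6% and 43% of all genes; 0%, 0.227% and 0.199% were called). In homozygous mice it was 0.14, -0.14 and -0.04, with 32, 7 and 10 positive (45.3%, 46.7% and 46.6% of all genes; 0.0163%, 1.14% and 2.16% were called). Several of these medians moved with the libraries and the scaling. The wild-type non-BT median was 0.0047 with 20 positive without the old animals numbered 2, 0.01 under quantile normalization and 0.19 with a term for the library-number ranges. In homozygous mice the T cell median was -0.04 with that term and -0.25 under quantile normalization, and the B cell median was 0.05 under quantile normalization. Immunoglobulin shares and cell markers differed with age as well. In homozygous T cells immunoglobulin transcripts took 1.11% to 2.38% of summed FPKM in young and 11.8% to 41.9% in old libraries, and in homozygous non-BT cells 1.04% to 1.42% and 9.54% to 44.2%, and 4 of 5 plasma cell markers were called higher in each. All 4 NK cell markers were called lower in old homozygous non-BT cells, with a mean log2 level of 6.09 to 6.65 in young and 3.68 to 5.20 in old libraries. Wild-type immunoglobulin shares were 4.77% to 10.1% in young and 11.6% to 44.6% in old T cells, and 4.22% to 9.54% and 15.4% to 33.8% in non-BT cells. FPKM are relative to library size, and the part of these features in the members' values was not tested. In wild-type B cells, where no gene was called, 6.26% of 12269 genes and no member had an unadjusted p under 0.05. The members with the smallest p in homozygous mice were Ndufv2 in B cells (0.25 ± 0.09 SE, adjusted p = 0.216), Ndufb10 in T cells (-0.35 ± 0.12 SE, adjusted p = 0.202) and Ndufs1 in non-BT cells (-0.24 ± 0.09 SE, adjusted p = 0.206). Without the old homozygous T cell library numbered 3, Ndufb10 passed at -0.48 with an adjusted p of 0.0379. In wild-type mice they were Ndufs1 in B cells (-0.14 ± 0.09 SE, adjusted p = 0.826), Ndufc2 in T cells (-0.28 ± 0.15 SE, adjusted p = 0.54) and Ndufb6 in non-BT cells (0.27 ± 0.12 SE, adjusted p = 0.301).

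The other genes of the respiratory chain were set beside the members. In old B cells all 9 complex III, all 10 complex IV and all 15 complex V genes were also positive, with medians of 0.18, 0.23 and 0.25, and 3 of 4 complex II genes were positive. The complex I genes of mitochondrial DNA were not, with 1 of 7 positive and a median of -0.16, nor were the assembly factors (9 of 16, median 0.04) or the regulators of mitochondrial biogenesis (2 of 10, median -0.06). In young non-BT cells complexes III, IV and V were again positive in 9 of 9, 10 of 10 and 15 of 15 genes, with medians of 0.16, 0.14 and 0.12, and the mitochondrial genes in 1 of 7. In old T cells complexes III, IV and V were positive in 9 of 9, 9 of 10 and 14 of 15 genes, with medians of 0.11, 0.11 and 0.09, beside 24 of 37 members. Their mean log2 levels did not overlap between the old T cell genotypes, at 7.72 to 7.78 in wild-type and 7.80 to 7.88 in homozygous libraries for complex III, 8.25 to 8.33 and 8.37 to 8.42 for complex IV and 8.01 to 8.04 and 8.11 to 8.17 for complex V. In young T cells they were positive in 7 of 9, 10 of 10 and 13 of 15 genes. No gene of these lists was called in any genotype comparison or in any age comparison. In young B cells the mitochondrial complex I genes were positive in 7 of 7, with a median of 0.34, none called, and their mean log2 level was 6.47 to 7.79 in the wild-type against 7.56 to 7.90 in the homozygous libraries. The wild-type library numbered 2 lay lowest; without it 6 of 7 were positive, with a median of 0.05 and group means of 7.67 and 7.73.

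Between fractions the mitochondrial genes of complex I differed more than the nuclear ones. All 7 were lower in non-BT than in B cells, with a median of -0.92, and than in T cells, with a median of -0.63. The log2 difference against B cells was -0.92 ± 0.11 (SE, limma adjusted p = 1.68e-09) for mt-Nd5, a proton-pumping subunit, and -0.99 ± 0.13 (adjusted p = 1.69e-08) for mt-Nd2. Assembly factors were lower in non-BT than in B cells (28.9% of all genes were) in 9 of 16 and higher in 1, Ndufaf7, a mitochondrial methyltransferase (0.90 ± 0.06, adjusted p = 7.72e-15). Ndufaf8 and Ndufaf1, both aids of assembly, were lower, at -0.62 ± 0.06 and -0.57 ± 0.07. Among 10 regulators 7 were lower in non-BT than in B cells, with Tfam, which packages and transcribes mitochondrial DNA, at -1.21 ± 0.07 (adjusted p = 1.81e-16) and Polrmt, the mitochondrial RNA polymerase, at -0.82 ± 0.10. Complex V was lower in non-BT than in T cells (28.3% of all genes were) in 12 of 15 genes and higher in 1, with Atp5d at -0.44 ± 0.05 (adjusted p = 4.10e-10), and complex IV was lower in 1 of 10 and higher in 1.

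**Figure D5:**
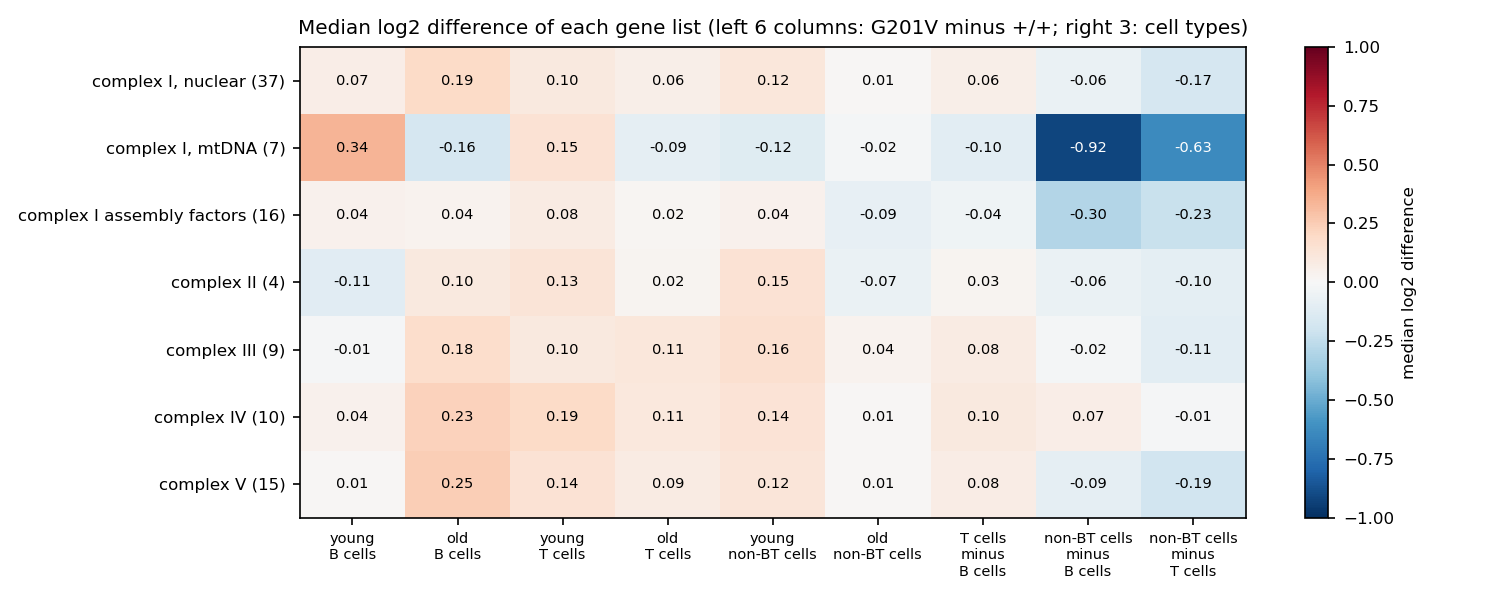
Median log2 difference of the nuclear complex I members and of 6 other lists (number of genes in brackets), for homozygous minus wild type in each age and fraction and for the 3 pairs of fractions. In old B cells the nuclear genes of complexes I, III, IV and V lie at 0.18 to 0.25 and the mitochondrial complex I genes at -0.16; in non-BT against B cells the mitochondrial genes lie at -0.92.

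The members were also followed from library to library within groups. After group means were taken off, the correlation of each member with the mean of the others over 14 libraries had a median of 0.41 in B cells (32 of 37 positive), 0.81 in T cells (36 positive) and 0.79 in non-BT cells (37 positive). The lowest values were those of Ndufv2 (-0.64) and Ndufs1 (-0.37) in B cells, and that of Ndufs1 in T cells (-0.53). The T cell values include the young homozygous library numbered 4, with the highest mean (7.62), and were not recomputed without it. The libraries share depth and composition, so the values are a description. The within-group SD of the members ran from 0.10 for Ndufs1 to 0.25 for Ndufb4 on the log2 scale, and the 12 group means spanned 0.82 for Ndufs3, more than for any other member.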

How the data were processed

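The kits named in the labels' protocols were RNeasy micro for RNA, SMART-Seq HT for cDNA and Nextera XT for libraries, which mark no strand, and no molecular identifiers are named. FPKM values were calculated and deposited by the authors, 1 file a library. HISAT2 2.1.0, Cuffdiff and Cufflinks 2.2.1 are named with GRCm38.p4, per the submitters' processing notes; the annotation release and the read filters are not given in the sources used here. FPKM are relative to library size, so abundant transcripts such as immunoglobulins can lower other values. Whether they did so for the members was not tested.

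Of the 47719 identifiers, 47305 were matched to symbols in GENCODE M21. Depth was estimated from the lowest values, taken as single fragments, of 5684 single-transcript genes of at least 1500 bases; no counting interval was drawn from it. limma 3.58.1 (R 4.3.3) was run on log2(FPKM + 1) (mean-variance trend, two-sided, Benjamini-Hochberg over all genes tested, threshold 0.05). Log2 differences are on this scale, which understates changes of low genes. The filter was 1 FPKM or more in 3 or more libraries of a fit: 14 libraries for genotype and age within a fraction, 42 for fractions. All 37 members passed. The tests were also tried on simulated data, for genotype in young B and young non-BT cells. Noise was drawn independently for each gene there, so the trial cannot bear on members that move together. Nothing says that replicates are separate animals, so p-values measure the spread between these libraries. Whether equal replicate numbers pair the genotypes was checked by correlating deviations from group means. Every pair was above 0.1 in old B cells alone (0.17 to 0.26), beside 0.09 to 0.20 in old T and 0.04 to 0.18 in old non-BT cells. In old B cells the replicate block changed no call. The main genotype tests are unpaired.

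Members, lists, markers and promoter motifs were chosen with earlier results of these data known. Members past the threshold were counted and up to 12 named by adjusted p; without any, the 3 smallest p are given. Of the 7 core subunits, 6 are given in every library, and 1 member enters the counts and medians but is not reported by itself here; Ndufa5, Ndufa7, Ndufb7, Ndufb8 and Ndufv3 were added after their values were seen. A pseudocount of 0.1, no filter, quantile normalization, median-of-ratios scaling, the replicate block, array weights, a term for library numbers, and leaving out the Psmb9-labelled libraries or each library were alternatives; leaving out the old animals numbered 2, and each young B cell library for the mitochondrial genes, was added after seeing the data.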

Additional observations from a re-analysis of the deposited data

Results flagged for a closer look

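Among 72 sets of 4 young libraries (11 members and the mean of all 37, in 6 groups), 2 held a library far from the other 3, and chance alone marks about 1 in 20 such sets. Ndufa7 stood at 345 FPKM in the young wild-type B cell library numbered 2, where the others ran from 278 to 284 FPKM. Ndufv3 stood at 200.3 FPKM in the young homozygous T cell library numbered 4, where the others ran from 147 to 155 FPKM.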

How the results depend on the processing

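Counts of members past the threshold stayed within 1.5 times of the reported count in 711 of 714 recomputed values, most of them 0 against 0. Counts of members with a positive difference moved by more than that in 44 of 714. For counts past the threshold the exceptions were the genotype difference averaged over ages in B cells and age in homozygous T cells. The former had 1 member (Ndufv2) under median-of-ratios scaling and 2 (Ndufa5 and Ndufa7) under array quality weights against 0. In the latter, leaving out 1 library gave 0 to 1 members. Leaving out each library gave 15 to 20 members for T against B cells (20 reported), 17 to 20 for non-BT against B cells (19) and 21 to 26 for non-BT against T cells (23). Median-of-ratios scaling gave 16 members higher and 1 lower for T against B cells, beside 16 and 4. Quantile normalization moved the median of all genes by -0.23 for non-BT against B cells and by -0.12 for non-BT against T cells; relative to all genes the members' median was then 0.06 and -0.17, beside -0.13 and -0.20, so that the first changed sign, with 5 members higher and 17 lower against B cells beside 5 and 14. The cause was not tested. Ndufb3, higher in T than in B cells, lost its call under array quality weights (log2 difference 0.13, adjusted p = 0.0706). No named member changed direction under any alternative. Medians of the members near 0 changed sign for age in wild-type B cells (0.03 under median-of-ratios scaling), in wild-type T cells (0.05 with a term for library numbers) and in homozygous non-BT cells (0.04 with that term), and over each library left out for genotype in old non-BT cells (-0.03 to 0.09) and for age in wild-type B cells (-0.05 to 0.04) and T cells (-0.09 to 0.01). The positive members for age ran from 1 to 26 in wild-type T cells, 1 to 13 in homozygous T cells and 4 to 29 in homozygous non-BT cells over all alternatives. For the 3 pairs of fractions the replicate block took libraries of 1 age, genotype and replicate number as correlated (0.0771), and gave 20, 19 and 24 members. For genotype within a fraction it was a term for each replicate number at each age, and gave 0 for every comparison. Libraries that correlated best with their own number in the other genotype were 6 of 6 in old B, 6 of 6 in old T and 5 of 6 in old non-BT cells. In young B, T and non-BT cells they were 2, 5 and 6 of 8. In all they were 30 of 42, which is a hint from the data and not from the design. No block could be fitted for age because replicate numbers are nested in age. With 3 or 4 libraries a group, members' differences under about 0.2 to 0.3 on the log2 scale lie within the 95% half-widths (0.21 to 0.31).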
